A study of Mus musculus with 10 samples.

Results

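The syntaxin binding protein genes described here were Stxbp2, Stxbp3, Stxbp4, Stxbp5, Stxbp5l and Stxbp6, which are 6 of the 29268 genes in the table of mouse uterus. They were taken by gene name, and the family was chosen by the measured difference of Stxbp6 between HSD17B1TG and WT uterus in these same mice. The values of these genes by genotype, and whether they passed the thresholds for a call, are therefore a description that supports nothing, and no p is given for them. Tests of difference are given for other genes. The lists of those genes were also chosen with earlier results of these data known. Their counts and adjusted p are therefore no independent support.

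Uterine samples of 10 female mice aged 4 months, 5 HSD17B1TG and 5 WT, each gave 1 RNA-seq library. Which part of the uterus was taken for RNA is not given in the sources used here. HSD17B1TG mice are FVB/N mice, kept as a heterozygous line, that carry a cDNA of human HSD17B1, the enzyme that makes estradiol from estrone. A CMV-enhanced chicken beta actin promoter drives the transgene in all tissues rather than in the uterus alone. According to the study, the transgenic females do not cycle and WT uteri for histology were taken at random phases of the cycle, while the phase of each WT mouse used here is not given in the sources used here, so genotype and cycling cannot be told apart. Transgenic mice are numbered TG1 to TG5 below, and controls WT1 to WT5.

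Each library held between 14817228 and 23271988 counts in genes. The mean root mean square distance of a mouse to its group mates was 0.834 to 1.06 on the log2 scale, but cell type markers set TG1 and WT4 apart. TG1 had summed epithelium markers of 886 FPKM against 2681 to 4444 FPKM in the other transgenic mice, smooth muscle markers of 7427 against 879 to 3126 FPKM and stroma markers of 2208 against 603 to 1320 FPKM. WT4 had smooth muscle markers of 5831 FPKM against 425 to 2091 FPKM in the other WT mice. Results without each of them are therefore given as well. Mitochondrial genes took 1.94% to 7.57% of the counts in HSD17B1TG and 2.58% to 3.37% in WT. The mouse gene Hsd17b1 had 0.992 ± 0.291 FPKM in HSD17B1TG and 0.918 ± 0.375 FPKM in WT (SD, n = 5 each), which does not measure the human transgene. Markers of epithelium, smooth muscle and stroma were all detected in both groups.

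Vesicles fuse with a membrane when SNARE proteins on both sides, the syntaxins and SNAP25 relatives of the target membrane and the VAMPs of the vesicle, zip into a bundle. Syntaxin binding proteins act on the syntaxin: the Sec1/Munc18 proteins clasp it and guide the assembly of the bundle, while tomosyns and amisyn carry a VAMP-like motif without a membrane anchor and can occupy its place. In the uterus, the luminal and glandular epithelium secretes into the lumen by exocytosis, and leucocytes release granules through much of the same machinery.

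The positions are those of the table, on the mouse build GRCm38. Stxbp2 (ENSMUSG00000004626) lies on the plus strand at chr8:3630955-3643644. The other genes lie on the minus strand, Stxbp3 (ENSMUSG00000027882) at chr3:108793176-108840526 and Stxbp4 (ENSMUSG00000020546) at chr11:90476492-90638084. Stxbp5 (ENSMUSG00000019790) spans chr10:9755547-9901079, its relative Stxbp5l (ENSMUSG00000022829) chr16:37114942-37384962, and Stxbp6 (ENSMUSG00000046314) chr12:44852484-45074709. All 6 are protein-coding genes with 3 to 6 protein-coding transcripts each in GENCODE M21. No annotated gene overlapped an exon of any of them, and the non-coding genes and pseudogenes that GENCODE M21 places inside introns of Stxbp4, Stxbp5, Stxbp5l and Stxbp6 were not analysed here.

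Because HSD17B1 makes estradiol, the promoter windows of RefSeq (GRCm38.p6, 250 bases before to 50 bases after the start site) were searched on both strands for the estrogen response element GGTCANNNTGACC, its half-site GGTCA, which the full element also contains, and the AP-1 site TGANTCA. All 6 genes had a window. The full element was in 0.0700% of the 32851 windows of the table and in 0 of the 6, and the AP-1 letters were in 7.81% of the windows and in 0 of the 6. The half-site was in 40.5% of the windows and in 3 of the 6, those of Stxbp3, Stxbp4 and Stxbp5l. The 4 matches are shown on the strand of the gene with 10 bases on either side and the half-site in capitals, to show which members held it. Windows of Stxbp2, Stxbp5 and Stxbp6 did not hold these letters. The annotated RefSeq start of Stxbp6 lay 226 bases inside the gene of the table and that of Stxbp2 154 bases inside, so their windows lie mostly within the gene or shortly before it.
Stxbp3, 167 bases before the start, chr3:108840655-108840679: cacagaagtcTGACCacactacgca
Stxbp4, 156 bases before the start, chr11:90638250-90638274: cagtccgcccTGACCacccgggctg
Stxbp5l, 208 bases before the start, chr16:37385152-37385176: gctttttctcTGACCtatccccaaa
Stxbp5l, 162 bases before the start, chr16:37385106-37385130: ctaagacttaGGTCAgtggagcttg

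Levels are given as FPKM, fragments per kilobase of gene length scaled by the size factor that DESeq2 gives each mouse, as deposited. Fold changes come from edgeR on the counts, as log2 of HSD17B1TG over WT with a standard error. A gene was called when its adjusted p was under 0.05, its fold change over 2 and its mean FPKM over 1 in either group. Of the 6 genes, 5 passed the filter on low counts, and Stxbp5l did not. Stxbp6 and Stxbp2 were called up and 0 were called down, beside 2.16% of the 16993 genes tested that were called up and 2.08% called down. The count was 1, with Stxbp2 no longer called, under limma voom, without the filter on low counts, and without TG2, TG3, TG4, TG5, WT1, WT2, WT3 or WT5. This contrast chose the family, so nothing is read from these counts. Every HSD17B1TG mouse was above every WT mouse for 1 gene, Stxbp6, beside 4.04% of all genes tested, and the reverse held for 0 of the 6, beside 2.65%.

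**Figure D1:**
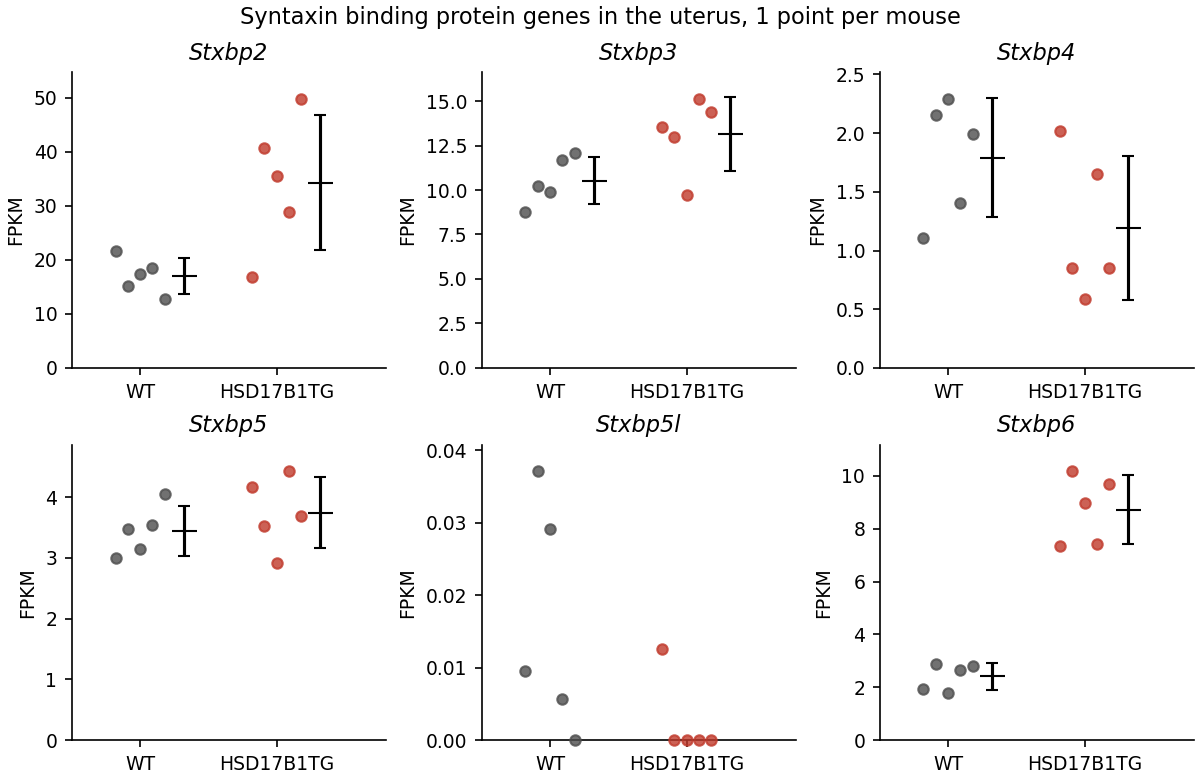
FPKM of each syntaxin binding protein gene in the uterus, with 1 point per mouse, grey for WT and red for HSD17B1TG, and the mean ± SD of 5 mice beside the points (no mean for Stxbp5l, which had at most 6 counts in a mouse). For Stxbp6 the HSD17B1TG mice lie between 7.34 and 10.2 and the WT mice between 1.77 and 2.87, and in the other panels the groups overlap.

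Stxbp6 encodes amisyn, a small syntaxin binding protein with a VAMP-like SNARE motif and no membrane anchor, known as a brake on exocytosis. The level in HSD17B1TG uterus was 7.34, 10.2, 8.98, 7.41 and 9.70 FPKM in TG1 to TG5. In WT1 to WT5 it was 1.93, 2.87, 1.77, 2.66 and 2.81 FPKM. The groups did not overlap, and the lowest transgenic mouse was 2.56 times the highest WT mouse. The mean was 8.72 ± 1.30 FPKM in HSD17B1TG and 2.41 ± 0.518 FPKM in WT (SD, n = 5 each), with a log2 fold change of 1.85 (SE 0.18). These levels rest on 633 to 937 counts per HSD17B1TG mouse and 151 to 305 per WT mouse. Within a group the levels were close together, the highest being 1.38 times the lowest in HSD17B1TG and 1.62 times in WT. In whole tissue, a different share of the cells that use a gene and a different amount of RNA per cell cannot be told apart, which holds for every gene here.

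The Sec1/Munc18 members were the most abundant of the family. Stxbp2, or Munc18-2, is the partner of the syntaxins Stx3 and Stx11 in epithelia, mast cells and cytotoxic lymphocytes. Its level was 16.8, 40.7, 35.4, 28.9 and 49.7 FPKM in TG1 to TG5. In WT1 to WT5 it was 21.6, 15.1, 17.4, 18.4 and 12.7 FPKM. TG2 to TG5 lay above every WT mouse, while TG1 lay within the WT range, so the groups overlapped. The mean was 34.3 ± 12.4 FPKM against 17.0 ± 3.35 FPKM (SD, n = 5 each), a log2 fold change of 1.01 (SE 0.26) that lies just inside the fold threshold. With 1 mouse left out, the log2 fold change ranged from 0.83 without TG5 to 1.18 without TG1.

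Stxbp3, or Munc18c, is the widely used relative that pairs with Stx4a at the plasma membrane. Its level was 13.5, 12.98, 9.70, 15.1 and 14.4 FPKM in TG1 to TG5 and 8.79, 10.2, 9.89, 11.7 and 12.1 FPKM in WT1 to WT5. All transgenic mice but TG3 were above the WT range, and TG3 was within it. The means of 13.1 ± 2.09 and 10.5 ± 1.35 FPKM (SD, n = 5 each) gave a log2 fold change of 0.32 (SE 0.15), which was not called. A copy of the gene on chromosome 19, the pseudogene Stxbp3-ps, held 10 to 35 counts per mouse, 2.11% of the counts of Stxbp3 over all mice. How the counting treated reads that fit both is not known, so the value of Stxbp3 is uncertain to that extent.

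The tomosyns block syntaxins with a VAMP-like tail and are related to the Lgl polarity proteins. Stxbp5, tomosyn, had 4.17, 3.53, 2.92, 4.42 and 3.68 FPKM in TG1 to TG5 and 3.005, 3.48, 3.15, 3.54 and 4.05 FPKM in WT1 to WT5. TG1 and TG4 were above the WT range, TG3 below it and the other transgenic mice inside it. The means were 3.75 ± 0.585 and 3.44 ± 0.405 FPKM (SD, n = 5 each), with a log2 fold change of 0.12 (SE 0.14). Stxbp5l, tomosyn-2, which is best known from neurons, was close to undetected: TG1 had 2 counts and the other transgenic mice 0, while WT1 to WT5 had 2, 6, 4, 1 and 0. A count of 0 allows for up to 3 counts, or 0.160 to 0.181 CPM (counts scaled to the total of the library) in TG2 to TG5 by counting error only, and no fold change is given for Stxbp5l.

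Stxbp4, or Synip, binds Stx4a and is known from the insulin-driven transport of glucose carriers to the surface of fat cells. It had 2.02, 0.850, 0.584, 1.65 and 0.847 FPKM in TG1 to TG5. WT1 to WT5 had 1.11, 2.16, 2.29, 1.41 and 1.99 FPKM. TG2, TG3 and TG5 were below every WT mouse, whereas TG1 and TG4 were inside the WT range. The means were 1.19 ± 0.613 and 1.79 ± 0.509 FPKM (SD, n = 5 each), and the log2 fold change of -0.60 (SE 0.36) was not called. Leaving out TG1 moved it to -0.87 and leaving out TG3 to -0.44.

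Without TG1 the log2 fold changes were 1.18 for Stxbp2, 0.31 for Stxbp3, -0.87 for Stxbp4, 0.08 for Stxbp5 and 1.91 for Stxbp6. Without WT4 they were 1.03, 0.35, -0.67, 0.12 and 1.89 in the same order. All 5 kept their sign in both fits.

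The order of the levels per length differed between genotypes in the place of Stxbp6. In WT uterus the means ran from Stxbp2 over Stxbp3, Stxbp5, Stxbp6 and Stxbp4 to Stxbp5l. Each neighbour kept this order in 5 of 5 WT mice, except that Stxbp6 was above Stxbp4 in 4 of 5 mice and their ranges overlapped. In HSD17B1TG uterus Stxbp6 came between Stxbp3 and Stxbp5, and each neighbour kept the order in 5 of 5 mice, although the ranges of Stxbp3 and Stxbp6 overlapped. Stxbp6 was 1.68 to 3.07 times Stxbp5 within a transgenic mouse and 0.561 to 0.825 times within a WT mouse. The ratio of Stxbp2 to Stxbp3 was 1.24 to 3.65 in HSD17B1TG and 1.06 to 2.45 in WT, and so overlapped.

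**Figure D2:**
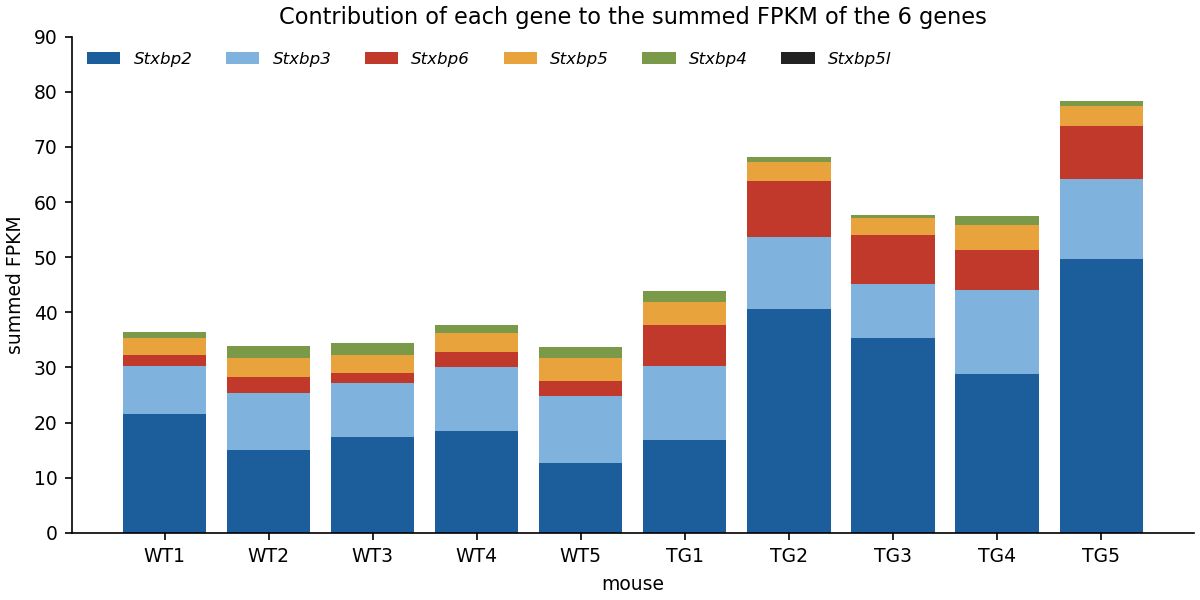
FPKM of the 6 genes stacked for each mouse (vertical axis, summed FPKM). The sum lies between 33.6 and 37.7 in WT and between 43.9 and 78.3 in HSD17B1TG, Stxbp2 is the tallest part in every mouse, and Stxbp5l is too low to be seen.

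The summed level of the 6 genes was 61.1 ± 12.9 FPKM in HSD17B1TG and 35.2 ± 1.77 FPKM in WT (SD, n = 5 each). The sum varied little among WT mice, from 33.6 to 37.7 FPKM, and ran from 43.9 FPKM in TG1 to 78.3 FPKM in TG5. Stxbp2 supplied 54.6% ± 10.5 of it in HSD17B1TG and 48.2% ± 7.86 in WT. Stxbp6 supplied 14.5% ± 1.83 and 6.86% ± 1.60, with ranges of 12.4% to 16.7% and 5.12% to 8.48% that did not overlap. Stxbp4 supplied 2.16% ± 1.57 and 5.14% ± 1.64.

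The genes also differed in how much they varied between mice of a genotype. Since Stxbp6 was chosen for its difference between these mice, and a clear difference goes with a small spread within groups, its SD is not independent of that choice. The SD of log2 CPM in WT was 0.17 for Stxbp5, 0.19 for Stxbp3, 0.28 for Stxbp2, 0.33 for Stxbp6 and 0.46 for Stxbp4, beside a median of 0.37 over all genes tested. In HSD17B1TG it was 0.22 for Stxbp6, 0.24 for Stxbp5 and 0.26 for Stxbp3, beside a median of 0.44, and 0.60 for Stxbp2 and 0.74 for Stxbp4. Stxbp3 and Stxbp5 thus had an SD under the median in both genotypes and Stxbp4 above it in both.

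The machinery that these proteins work with was examined in 11 lists of 106 genes, of which 102 were in the table and 94 were tested. Of the 94 genes, 6 rose and 1 fell in HSD17B1TG uterus by edgeR's quasi-likelihood test with all thresholds. Of all genes tested, 2.16% were called up and 2.08% down with these thresholds. These shares also belong beside the edgeR counts of each list and of the marker lists below. By the adjusted p alone 11 of the 94 passed, beside 6.16% of all genes tested. The median log2 fold change was 0.08 over the 94 genes and 0.00 over all genes. At an unadjusted p under 0.05 there were 28 of 94, beside 26.1% of all genes. Without TG2, TG4, TG5, WT1, WT2, WT3 or WT5, the count of genes that rose went from 6 to 1, which was Sytl1 each time. It was 8 without TG1 and 10 without WT4, and each of the 7 called genes was also called in both of these fits.

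**Figure D3:**
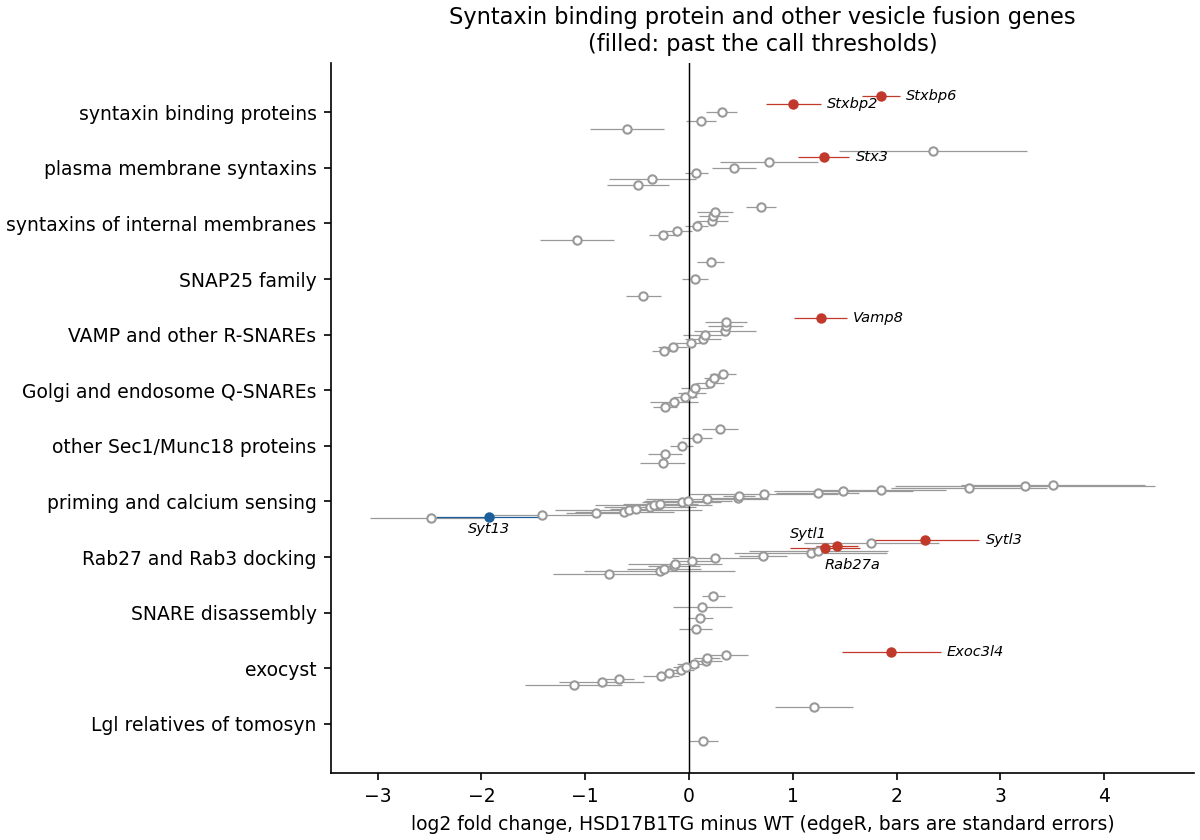
Log2 fold change of HSD17B1TG over WT (horizontal axis, edgeR, bars are standard errors) for the 5 tested syntaxin binding protein genes and the 94 tested machinery genes by list, with red filled points for genes called up and a blue filled point for Syt13, the gene called down. The lists of internal syntaxins, SNAP25 relatives, Golgi and endosome SNAREs, other Sec1/Munc18 proteins, SNARE disassembly and Lgl relatives hold no filled point.

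Among the 7 plasma membrane syntaxins, 1 rose. Stx3, the partner of Stxbp2 in apical exocytosis, had 5.98, 7.67, 6.86, 9.73 and 13.01 FPKM in TG1 to TG5 and 2.91, 3.85, 2.32, 4.24 and 4.21 FPKM in WT1 to WT5. All transgenic mice were above all WT mice, with a log2 fold change of 1.30 (SE 0.25, edgeR adjusted p = 0.0234). Without 1 mouse the adjusted p of Stx3 was 0.0127 to 0.0601. Stx4a, the syntaxin bound by Stxbp3 and Stxbp4, had a log2 fold change of 0.07 (SE 0.11, edgeR adjusted p = 0.731). The other plasma membrane syntaxins did not pass either, with 0.43 for Stx1a (SE 0.21, edgeR adjusted p = 0.221), -0.49 for Stx2 (SE 0.30, adjusted p = 0.321) and 0.77 for Stx11 (SE 0.47, adjusted p = 0.33).

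Of the 9 VAMPs and other R-SNAREs, Vamp8 rose. Vamp8, the vesicle SNARE of regulated secretion in exocrine glands and of endosome fusion, had 40.0, 43.1, 36.3, 56.4 and 86.0 FPKM in TG1 to TG5 and 21.8, 19.8, 20.7, 29.8 and 16.3 FPKM in WT1 to WT5. The groups did not overlap, and the log2 fold change was 1.27 (SE 0.25, edgeR adjusted p = 0.0260). The adjusted p was 0.0102 to 0.0718 with 1 mouse left out. Vamp2 and Vamp3, which serve constitutive and regulated exocytosis in many cells, had log2 fold changes of 0.02 (SE 0.15, edgeR adjusted p = 0.956) and 0.35 (SE 0.17, adjusted p = 0.206). Vamp3 overlaps Camta1 on the same strand. Snap23, the SNAP25 relative of most tissues, was at 0.06 (SE 0.12, edgeR adjusted p = 0.80), and 0 of the 3 tested members of that family were called by edgeR, DESeq2 or voom (1 at an unadjusted p under 0.05).

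The list of Rab27 and Rab3 docking genes held 3 of the 6 that rose, out of 14 tested. Sytl1, a synaptotagmin-like protein that ties Rab27 vesicles to the plasma membrane, had 6.84, 7.24, 5.07, 5.71 and 7.12 FPKM in TG1 to TG5 and 2.75, 1.63, 2.59, 2.54 and 2.37 FPKM in WT1 to WT5. With a log2 fold change of 1.43 (SE 0.20, edgeR adjusted p = 0.0153) it was the machinery gene that stayed called in all 15 alternatives. Rab27a, the small GTPase that Sytl1 binds, had 11.5, 17.4, 15.1, 11.02 and 14.8 FPKM in TG1 to TG5 and 5.11, 3.64, 5.59, 11.1 and 2.64 FPKM in WT1 to WT5. WT4 lay just above TG4, and the log2 fold change was 1.31 (SE 0.34, edgeR adjusted p = 0.0471, 0.00458 to 0.114 with 1 mouse left out). Sytl3, another Rab27 binder, had a mean of 1.88 ± 1.23 against 0.387 ± 0.182 FPKM (SD, n = 5 each) and a log2 fold change of 2.27 (SE 0.52, edgeR adjusted p = 0.0364). Sytl3 overlaps Ezr on the other strand, which had 76578 counts over the 10 mice against 999 for Sytl3, and the strand setting of the counting is not given in the sources used here, so the value of Sytl3 is uncertain.

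Of the 22 tested genes of priming and calcium sensing, 0 rose and 1 fell by edgeR, while 11 had an unadjusted p under 0.05, and DESeq2 called 3 up and 2 down and voom 2 up and 0 down. Syt13, a synaptotagmin that does not bind calcium, had 3.67, 1.94, 1.70, 3.56 and 2.07 FPKM in TG1 to TG5 and 3.79, 8.94, 15.4, 2.91 and 17.8 FPKM in WT1 to WT5. Its WT mice were widely spread, and WT4 lay inside the transgenic range. The log2 fold change was -1.93 (SE 0.51) with an edgeR adjusted p = 0.0498, and 0.0139 to 0.113 with 1 mouse left out. The call was lost with limma voom (adjusted p = 0.139). Unc13d, or Munc13-4, the priming factor that acts with Rab27a and Stxbp2 in lymphocyte and mast cell granule release, had 1.15 ± 0.395 FPKM in HSD17B1TG and 2.13 ± 0.584 FPKM in WT (SD, n = 5 each), a log2 fold change of -0.89 (SE 0.29, edgeR adjusted p = 0.087).

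In the exocyst list, which tethers vesicles to the plasma membrane before fusion, 1 of 12 tested genes rose. Exoc3l4, a gene related to the exocyst subunit Exoc3, had 4.30, 1.76, 1.37, 3.12 and 1.83 FPKM in TG1 to TG5 and 0.547, 0.410, 0.219, 1.28 and 0.743 FPKM in WT1 to WT5. The groups did not overlap, with a log2 fold change of 1.95 (SE 0.48, edgeR adjusted p = 0.0424, 0.0121 to 0.105 with 1 mouse left out). An antisense gene, Gm10425, overlaps Exoc3l4, and reads of both cannot be told apart without strand. Of the 2 Lgl relatives of the tomosyns, Llgl2 had 23.4 ± 10.2 against 10.1 ± 4.39 FPKM (SD, n = 5 each) and missed the threshold at a log2 fold change of 1.21 (SE 0.37, edgeR adjusted p = 0.0752). Llgl2 passed it with DESeq2 (adjusted p = 0.024), without TG1 (0.0271) and without WT4 (0.0406). Llgl1 had a log2 fold change of 0.14 (SE 0.14, edgeR adjusted p = 0.568) and overlaps Flii on the other strand.

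No gene of the internal syntaxins (8 tested), the Golgi and endosome Q-SNAREs (8), the other Sec1/Munc18 proteins (5) or the NSF and SNAP factors that take the bundle apart again (4) was called by edgeR. At an unadjusted p under 0.05 there were 2, 2, 0 and 0 of them, and DESeq2 called 1 internal syntaxin down, while voom called 0. The median log2 fold changes of these lists were 0.15, 0.04, -0.07 and 0.12. Stx7, an endosomal syntaxin, passed the adjusted p but not the fold threshold, with 22.4 ± 3.01 against 13.8 ± 2.42 FPKM (SD, n = 5 each) and a log2 fold change of 0.70 (SE 0.15, edgeR adjusted p = 0.0292). Exoc6b of the exocyst list did so in the other direction, with 2.65 ± 0.177 against 4.20 ± 0.693 FPKM (SD, n = 5 each), every transgenic mouse below every WT mouse and a log2 fold change of -0.67 (SE 0.14, edgeR adjusted p = 0.0270). Syt4 and Syt17, from the list of priming and calcium sensing, passed the adjusted p with a mean FPKM under 1 in both groups, with log2 fold changes of -2.48 (SE 0.59, edgeR adjusted p = 0.0386) and 3.51 (SE 0.88, adjusted p = 0.0445). These 4 genes were chosen for mention after their values were seen.

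**Figure D4:**
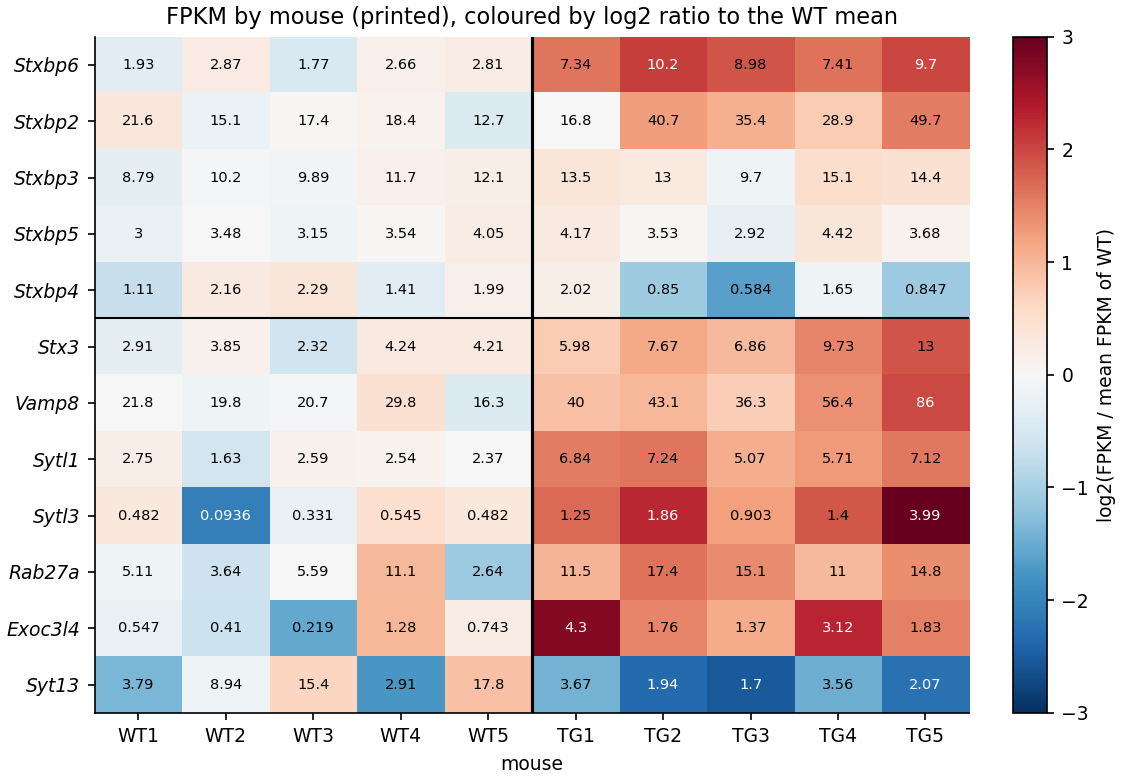
FPKM in every mouse (printed in the cells) for the 5 tested syntaxin binding protein genes, above the line, and the 7 called machinery genes, below it, coloured by the log2 ratio to the mean of the WT mice. Stxbp6 is red in all 5 HSD17B1TG columns, Stxbp2 is near white in TG1, and Syt13 is spread between 2.91 and 17.8 FPKM within WT.

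The pattern of Stxbp6 over the 10 mice was compared with 14314 protein-coding genes by the root mean square difference of centred log2 CPM, where a smaller value means more alike. Each gene was centred on its mean over all 10 mice, so this value includes the genotype difference by which Stxbp6 was chosen. Nothing is read from the likeness. Nearest were Ufsp1 (0.27), Fam83f (0.29), 1700010I14Rik (0.33), Ache (0.36) and Parp8 (0.36), beside a median of 1.05. Ache, which encodes acetylcholinesterase, ends 162 bases before Ufsp1 on the same strand of chromosome 5, so these neighbours may share reads. Their levels were low like that of Stxbp6, with 8.32 ± 2.95 against 2.37 ± 0.561 FPKM for Ufsp1 and 2.21 ± 0.850 against 0.750 ± 0.227 FPKM for Ache in HSD17B1TG and WT (SD, n = 5 each).

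For Stxbp2 the nearest genes were closer, namely Tyw1 (0.11), H2-Q4 (0.14), Ccdc120 (0.14), Cd82 (0.14) and Ifi47 (0.16), beside a median of 0.76. Here too the value includes the difference between genotypes. Tyw1, an enzyme of tRNA modification, had 8.02 ± 2.36 FPKM in HSD17B1TG and 4.02 ± 0.613 FPKM in WT (SD, n = 5 each). H2-Q4 belongs to a family of near-identical major histocompatibility genes, and its count is uncertain for that reason.

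Markers of the cell types of a uterus were summed for each mouse. For the 12 epithelium markers, led by Wfdc2, the sum in TG1 to TG5 was 886, 2825, 3232, 2681 and 4444 FPKM. It was 1454, 1182, 853, 2170 and 874 FPKM in WT1 to WT5. TG1, the transgenic mouse with Stxbp2 inside the WT range, also had an epithelium sum inside the WT range, and TG5 had the highest of both. By edgeR 0 of the 12 markers were called, but 5 were without TG1 and 5 without WT4, 3 with DESeq2 and 0 with voom, and 7 had an unadjusted p under 0.05. The part of the epithelium in the value of Stxbp2 was not tested. The ranges of the epithelium sum overlapped between the genotypes while those of Stxbp6 did not, and the part of the epithelium in the value of Stxbp6 was not tested either.

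**Figure D5:**
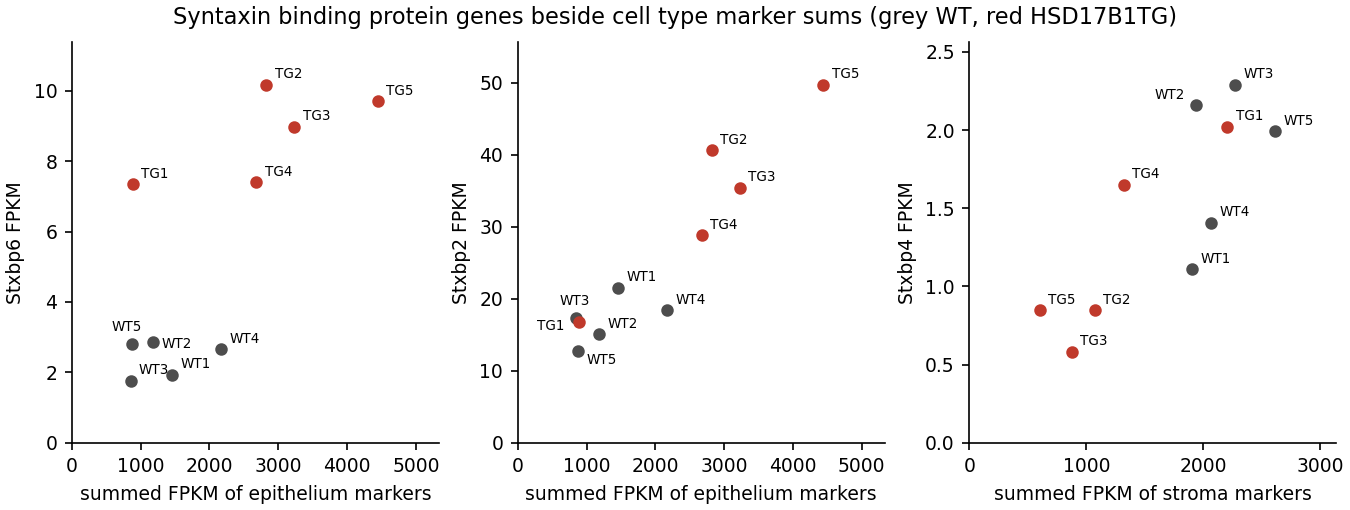
Stxbp6 and Stxbp2 (vertical axes, FPKM) against the summed FPKM of 12 epithelium markers, and Stxbp4 against that of 10 stroma markers, with 1 point per mouse, grey for WT and red for HSD17B1TG. TG1 lies among the WT mice for Stxbp2 and Stxbp4 and above all of them for Stxbp6, and these pairings were chosen after the values were seen.

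The 10 stroma markers, led by Col1a1, summed to 2208, 1071, 875, 1320 and 603 FPKM in TG1 to TG5 and to 1908, 1939, 2275, 2069 and 2616 FPKM in WT1 to WT5. Of the 10, 5 fell by edgeR with all thresholds, 0 without TG5, 1 without TG2 or WT5 and 2 without TG4, WT2 or WT3. TG2, TG3 and TG5, which had the lowest Stxbp4, also had the lowest stroma sums, and the part of the stroma in the value of Stxbp4 was not tested. The 9 tested markers of NK cells and cytotoxic lymphocytes, cells in which Stxbp2 and Unc13d are known to act, were led by Gzmb. Of these, 6 fell, while 4 did without TG2 and 2 without TG4, TG5, WT1, WT2, WT3 or WT5. Their list of 11 genes summed to 2.28 to 9.53 FPKM in HSD17B1TG and 15.6 to 128 FPKM in WT.

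The neutrophil markers, led by Ly6g, summed to 11.03 to 17.01 FPKM in HSD17B1TG and 0.951 to 5.55 FPKM in WT without overlap, as did Stxbp6, and 0 of the 4 tested were called by edgeR (1 without TG1, WT3 or WT4, 3 with DESeq2, 0 with voom and 2 at an unadjusted p under 0.05). Retnlg and Ngp were at 0 counts in all WT mice. The macrophage sum, led by C1qa, was 174 to 298 against 143 to 221 FPKM, with 1 of 9 called up. That of all leucocytes, led by Laptm5, was 76.1 to 102 against 59.7 to 128 FPKM, with 1 of 8 called up. The mast cell markers, led by Hdc, summed to 9.58 to 41.4 against 27.1 to 60.6 FPKM, and 2 of 7 tested fell. Without TG2, TG4, TG5, WT2, WT3 or WT5 none of the macrophage, leucocyte or mast cell markers was called, and without WT4 a further 3 leucocyte markers were called down. The part of these cells in the values of the syntaxin binding protein genes was not tested.

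Other lists overlapped between the genotypes, and 0 of their tested genes were called by edgeR or voom. Smooth muscle, led by Acta2, summed to 879 to 7427 FPKM in HSD17B1TG and 425 to 5831 FPKM in WT. Endothelium, led by Esam, had 27.9 to 104 against 66.6 to 169 FPKM, with 4 genes at an unadjusted p under 0.05 and 2 called down with DESeq2, and the other lists of this paragraph had 0 of either. Neuron markers, led by Stmn2, were low at 0.872 to 3.09 against 1.17 to 2.28 FPKM, with 3 genes tested, and adipocyte markers, led by Cfd, ran from 0 to 103 against 0 to 20.1 FPKM, with 0 genes tested. Without TG1, and likewise without WT4, 2 endothelium markers fell, while the counts of the other lists in this paragraph stayed at 0 whichever mouse was left out.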

How the data were processed

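Paired-end libraries (150 bp) of 10 uteri were mapped by the authors with HISAT2 2.0.5, per the submitters' processing notes, using the Ensembl 94 annotation of GRCm38. The read counter, its strand setting and its handling of multiply mapped reads are not given in the sources used here. The authors deposited a raw count for every gene in every mouse. They also deposited a signal, in which counts are divided by the size factor DESeq2 gives each mouse, and FPKM, which rest on the table's gene length and that size factor. Columns and tables of the authors' own comparison (fold changes, p-values and term enrichments) were not used.

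Genotypes were taken from the labels. The members and gene lists were chosen with earlier results of these data known. Low counts were removed with filterByExpr. After TMM scaling, edgeR 4.0.16 (R 4.3.3) gave quasi-likelihood tests, adjusted by Benjamini-Hochberg over 16993 genes, and calls used the thresholds of the study's methods. The code was tested on simulated data. Alternatives were RLE size factors, no filter beyond 1 count, DESeq2 1.42.0, voom of limma 3.58.1, the adjusted p alone, each mouse left out, and log2 FPKM with a pseudocount of 0.1 or 1. Named were the members, the called machinery genes (at most 3 per list), long-known partners of the members, the 5 genes most like Stxbp6 and the 5 most like Stxbp2 (prior count 2), and the leading and undetected genes of each marker list. Replicates are separate mice. No litter, batch or date is in the labels, so none was modelled. Promoter windows came from RefSeq.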

Additional observations from a re-analysis of the deposited data

Results flagged for a closer look

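Over 23 genes, the 6 syntaxin binding protein genes and 17 named machinery genes, 46 groups of 5 mice were examined for a mouse far from the others, and 2 stood out. Chance alone gives about 1 in 20 such groups. For Stxbp5l, TG1 had 0.0126 FPKM while the other HSD17B1TG mice were at 0, a difference that rests on 2 counts. For Vamp3, TG5 had 42.9 FPKM and the next HSD17B1TG mouse 30.9 FPKM.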

How the results depend on the processing

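The log2 fold changes of the 5 tested syntaxin binding protein genes kept their sign in every alternative. With 1 mouse left out they ran from 0.83 to 1.18 for Stxbp2, 0.23 to 0.39 for Stxbp3, -0.87 to -0.44 for Stxbp4, 0.04 to 0.17 for Stxbp5 and 1.73 to 1.91 for Stxbp6. On log2(FPKM + 1), which understates the change of low genes, Stxbp6 had 1.52. The count of members called up was 1 with voom and 1 without the filter, and 1 to 2 with 1 mouse left out, and 0 were called down throughout. Stxbp2 was the gene lost, in 8 of the 10 fits without a mouse, all but those without TG1 and without WT4, and nothing is read from these counts. Machinery genes that rose numbered 11 with DESeq2 and 1 to 10 with 1 mouse left out. Those that fell numbered 3 with DESeq2, 3 by the adjusted p alone, 0 with voom and 0 to 1 with 1 mouse left out. Over all genes, 923 were called up and 674 down with DESeq2, 568 up by the adjusted p alone and 189 down with voom, beside 367 and 354 in the main test. With 1 mouse left out these counts were 38 to 888 up and 27 to 666 down, above the main counts without TG1 (763 and 575) and without WT4 (888 and 666), and at 367 up and 528 down without TG3. Each of these fits leaves out 1 mouse, and the cause of the differences between them was not tested. Rab27a was not called without the filter (adjusted p = 0.0589). No paired analysis was made because the labels do not say that any mice form pairs, and the numbers used here only name the mice. Counting error limits what can be said of Stxbp5l.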
